A study of Mus musculus with 50 samples.

Results

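The 10 genes described here belong to the unfolded protein response and the integrated stress response: Atf4, Atf5, Ddit3, Trib3, Asns, Chac1, Hspa5, Herpud1, Dnajb9 and Xbp1. They were chosen by name, with earlier results of these data known, and each was measured, 10 of the 30743 named genes on the array. Liver was profiled on arrays at gestational day 17.5 in outbred mice of the CD-1 strain, whose dams had been gavaged once a day from embryonic day 1.5 to 17.5. Perfluorooctanoic acid (PFOA) and GenX (hexafluoropropylene oxide dimer acid) are perfluorinated carboxylic acids, the former a straight chain and the latter a branched ether. Maternal liver came from dams given vehicle (control), PFOA at 1 mg/kg/day (PFOA1) or 5 mg/kg/day (PFOA5), or GenX at 2 mg/kg/day (GenX2) or 10 mg/kg/day (GenX10), with 5 arrays in each group. Fetal liver came from fetuses of dams on the same 5 regimens, described as female and drawn at random where a litter gave several, with 5 arrays per group except PFOA5 (6 arrays) and GenX10 (4 arrays). Maternal liver was a piece of the left lateral lobe, and the fetuses were exposed through the dam. Which fetus belongs to which dam is not named in the sources used here, so all arrays were treated as independent. The doses of the compounds differ, so values under PFOA and GenX stand side by side without a comparison, and all exposures of a tissue share one control group.

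Cells slow protein synthesis when unfolded proteins collect in the endoplasmic reticulum (ER) or when amino acids or haem run short: kinases such as PERK, GCN2 and HRI phosphorylate the initiation factor eIF2-alpha, and translation of the transcription factor ATF4 rises. ATF4 and its partners ATF5 and CHOP (the product of Ddit3) switch on genes of amino acid supply such as Asns and feedback genes such as Trib3 and Chac1. In parallel the ER sensors IRE1, which splices the Xbp1 transcript, and ATF6 raise ER chaperones and degradation factors, among them Hspa5, Herpud1 and Dnajb9, which hepatocytes need at high levels because they secrete most plasma proteins.

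Promoter windows of 250 bases before to 50 bases after the transcript start were available for all 10 genes (RefSeq, GRCm38.p6). A selection of regulatory elements, those given below, was searched on both strands. The C/EBP-ATF element TGATGNAAN, bound by ATF4 with C/EBP partners, was present in the windows of 4 of the 10 genes (Trib3, Asns, Chac1 and Herpud1), against 3.95% of all 32851 windows. The ER stress element in the form CCAAT, 9 bases, CCACG was found for Hspa5 and no other of the 10, against 0.119% of all windows. Other forms of the ER stress element were not searched, so stretches in small letters may hold them. Neither the element TGACGTGG (0.676% of windows) nor a PPAR type direct repeat, AGGTCA, 1 base, AGGTCA (0.0396%), was found in any of the 10. These are letter matches with no test, and a window without a match says nothing about the factor. The stretches that hold a match before the start site are printed with the match in capitals, 5′ to 3′ on the strand of the gene and ending at the base before the start. They are shown because their genes were called in different directions in maternal liver at PFOA5: Asns higher, and Chac1, Herpud1 and Hspa5 lower. By the limit given below, Chac1 was above background on 0 of the 25 maternal arrays and Asns on 3. The calls of Asns and Chac1 were lost on leaving out single arrays and are uncertain. Their differences kept their sign in the 17 alternatives that kept each gene.
Asns (chr6:7693210-7693329, minus strand): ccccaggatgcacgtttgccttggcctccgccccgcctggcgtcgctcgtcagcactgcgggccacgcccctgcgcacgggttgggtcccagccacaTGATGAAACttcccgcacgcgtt
Chac1 (chr2:119350992-119351241, plus strand): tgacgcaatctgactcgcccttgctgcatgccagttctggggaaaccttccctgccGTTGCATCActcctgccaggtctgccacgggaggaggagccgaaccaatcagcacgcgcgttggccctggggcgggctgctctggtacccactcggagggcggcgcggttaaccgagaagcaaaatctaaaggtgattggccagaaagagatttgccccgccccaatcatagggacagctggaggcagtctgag
Herpud1 (chr8:94386279-94386428, plus strand): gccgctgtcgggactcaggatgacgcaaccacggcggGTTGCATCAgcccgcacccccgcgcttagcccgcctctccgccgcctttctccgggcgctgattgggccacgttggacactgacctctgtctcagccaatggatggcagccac
Hspa5 (chr2:34771970-34772089, plus strand): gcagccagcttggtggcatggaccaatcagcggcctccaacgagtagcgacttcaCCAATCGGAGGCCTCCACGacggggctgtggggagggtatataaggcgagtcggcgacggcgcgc
Asns carries its match in the forward direction, and Chac1 and Herpud1 share the same 9 letters, GTTGCATCA, as the reverse complement. The match of Trib3 lies after its start site, at bases 13 to 21 counted from 0 at the start, also in the reverse direction.

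Levels are log2 RMA intensities, so a difference of 1 is a doubling. An array's limit for a signal above background was the 95th percentile of its 5222 negative controls, which lay between 7.38 and 8.18. A gene at or below that limit on every array of a group is called not well above background there, and its level is then only a bound. Hepatocyte markers averaged 12.07 to 12.12 per control array in maternal liver and 10.84 to 10.96 in fetal liver. Of 6 erythroid markers, 4 (Slc4a1, Klf1, Epb42 and Rhag) were not well above background in any maternal group, whereas all 6 were above it in fetal liver, where blood forms at this stage. The source names of 2 fetal arrays, PFOA5 replicate 6 and GenX2 replicate 5, name another dose group than their titles, and 2 others, fetal control replicate 3 and GenX2 replicate 2, had a low level of Xist, the transcript of the silenced X chromosome. In whole tissue, fewer cells of a type and less RNA per cell cannot be told apart. Unless another test is named, p values come from limma and are Benjamini-Hochberg adjusted over all 30743 genes, differences are given ± SE, and a call is an adjusted p under 0.05.

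In maternal liver the stress genes split into opposite directions at the higher PFOA dose. Trib3 and Asns rose (2 of 10 genes, beside 10.8% of all genes) while Hspa5, Herpud1, Xbp1 and Chac1 fell (4 of 10, beside 9.04% of all genes). The median difference of the 10 genes was 0.02, against -0.05 over all genes. The PFOA5 arrays of Trib3, Asns, Hspa5 and Herpud1 did not overlap the controls. Those of Dnajb9 were barely apart from them, with the lowest PFOA5 array at 10.0989 and the highest control at 10.0982. The share of all genes without overlap was not computed, so this is no trait of the 10 genes. At PFOA1 none of the 10 was called (0.0325% of all genes in either direction), and 1 had an unadjusted p under 0.05. GenX2 gave 1 lower call, Chac1 (0.937% of all genes), and none higher (2.43%). GenX10 likewise gave 1 lower call, Chac1 (6.22%), and none higher (7.55%). In each GenX comparison 5 of the 10 had an unadjusted p under 0.05. The share of all genes under that unadjusted limit was not computed for any comparison, so such counts cannot be set against it.

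**Figure D1:**
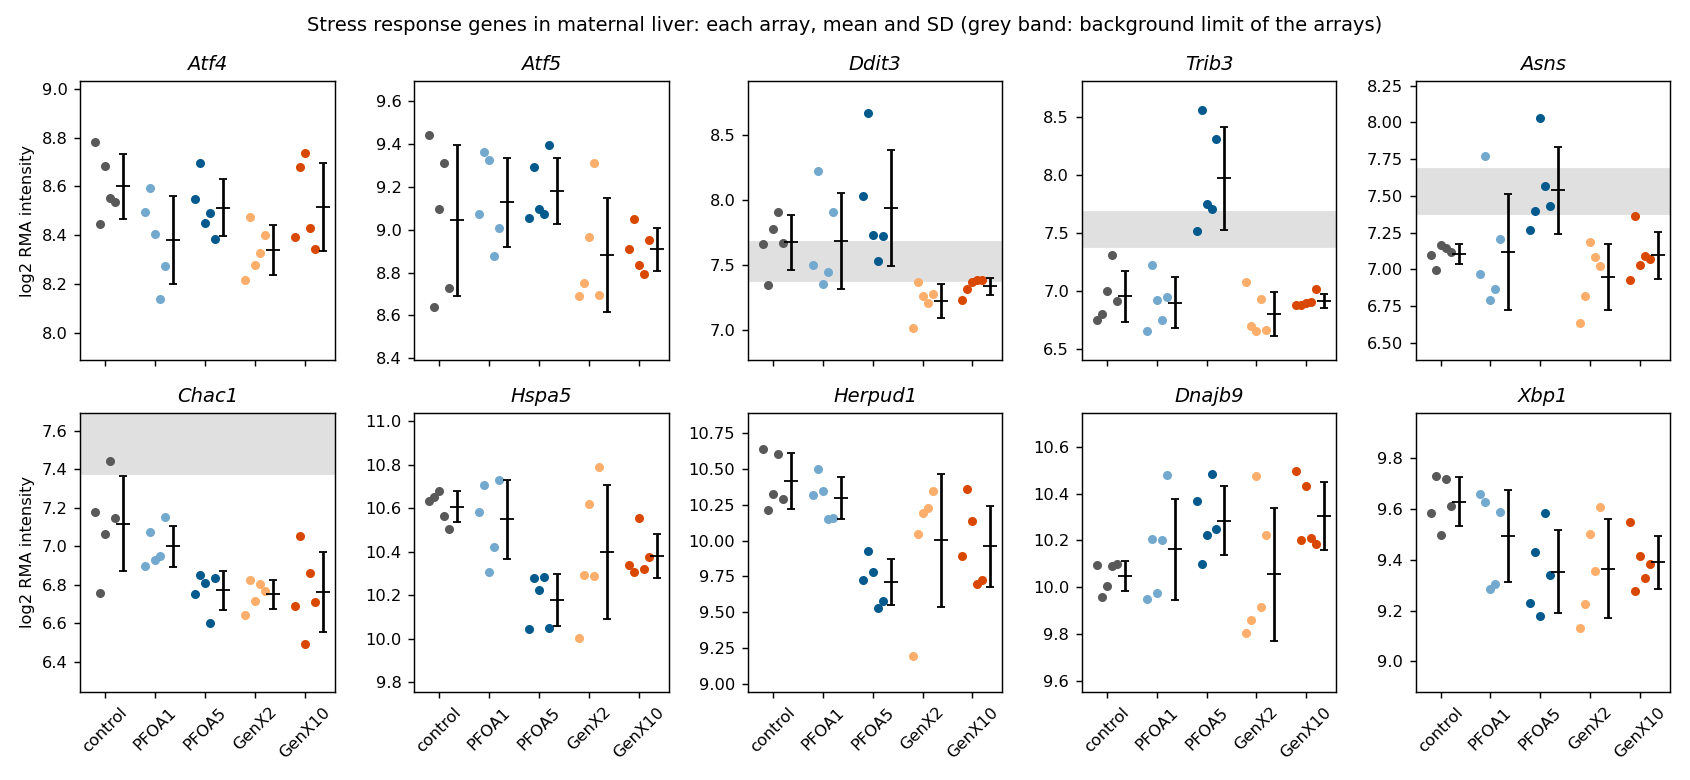
Log2 RMA intensity of the 10 genes on each maternal array (points), with the mean and SD of each group of 5 beside them; the grey band spans the background limits of the maternal arrays. Trib3 stands above the other groups at PFOA5, where its arrays lie between 7.52 and 8.56, and Hspa5 and Herpud1 stand below the controls there.

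None of the 3 transcription factors that head the response was called in maternal liver. Atf4 (chr15:80255184-80257545), the factor whose translation the eIF2-alpha kinases raise, measured 8.78, 8.45, 8.68, 8.55 and 8.54 on the control arrays and 8.55, 8.70, 8.45, 8.49 and 8.38 on the PFOA5 arrays. The groups overlapped, and the difference was -0.09 ± 0.09 (adjusted p = 0.502). Its transcript was lower than control by 0.22 at PFOA1 (adjusted p = 0.902) and by 0.26 at GenX2 (adjusted p = 0.119), neither a call. Atf5 (chr7:44812256-44816658), a related factor that also responds to mitochondrial stress, ranged from 8.64 to 9.44 in controls and from 9.05 to 9.39 at PFOA5, and no exposure gave a call. Ddit3 (chr10:127290793-127296291), which encodes CHOP, measured 8.04, 8.67, 7.73, 7.54 and 7.73 at PFOA5 against 7.67, 7.34, 7.78, 7.91 and 7.67 in controls. Of the PFOA5 arrays 2 lay above every control and 3 among the controls (0.26 ± 0.17, adjusted p = 0.263). At GenX2 its arrays lay between 7.02 and 7.37 and at GenX10 between 7.23 and 7.39, all below the background limit, and the adjusted p was 0.157 and 0.168. Of the 2 features for Ddit3 the brighter one, used here, belongs to sequence not placed on the genome. The other averaged 7.23 in controls, 7.62 at PFOA5, 6.78 at GenX2 and 6.91 at GenX10, the same order.

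Among the ATF4 targets Trib3 showed the largest rise of the 10 genes. Trib3 (chr2:152337425-152344060) encodes a pseudokinase that restrains ATF4 and the insulin signalling kinase AKT. Its control arrays measured 6.75, 6.80, 7.00, 7.30 and 6.91, all at or below background, and its PFOA5 arrays 7.52, 8.56, 7.75, 7.71 and 8.31, of which 4 of 5 were above it. Every PFOA5 array lay above every control, and the fitted difference was 1.02 ± 0.15 (adjusted p = 3.12e-05). Because the controls give only a bound, the rise is at least 1.28-fold. The arrays of PFOA1 (6.65 to 7.22), GenX2 (6.65 to 7.07) and GenX10 (6.88 to 7.02) all overlapped the controls. Trib3 at PFOA5 also exceeded PFOA1 by 1.07 ± 0.15 (adjusted p = 2.86e-05).

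Asns (chr6:7675165-7693209), which makes asparagine and carries the C/EBP-ATF element shown above, moved less. Its controls measured 7.10, 6.99, 7.17, 7.15 and 7.12, none above background, and its PFOA5 arrays 7.27, 7.39, 8.03, 7.57 and 7.43, of which 2 of 5 were above. The PFOA5 arrays did not overlap the controls, and the difference of 0.43 ± 0.15 was just past the threshold (adjusted p = 0.043). Leaving out any 1 control array, or PFOA5 replicate 2, 3, 4 or 5, moved the adjusted p to between 0.0502 and 0.118 and ended the call. Chac1 (chr2:119351242-119354326), a glutathione-degrading enzyme with the same element, was not well above background in any maternal group. Its mean of 7.12 in controls compares with 6.77 at PFOA5 (adjusted p = 0.015), 6.75 at GenX2 (adjusted p = 0.0372) and 6.76 at GenX10 (adjusted p = 0.0185), all called lower. All Chac1 levels being bounds, no fold is given. Control replicate 4 was the brightest for Chac1 at 7.44, and without it the adjusted p was 0.0552 at PFOA5, 0.126 at GenX2 and 0.0635 at GenX10. The PFOA5 call was also lost without PFOA5 replicate 4 (adjusted p = 0.0508), and the GenX10 call without GenX10 replicate 1 or 3 (0.0533 and 0.0594). At GenX2 the call was lost without control replicate 1, 3, 4 or 5, or GenX2 replicate 1, 2, 3 or 5, with an adjusted p between 0.0538 and 0.126.

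Of the 4 ER genes, Hspa5, Herpud1 and Xbp1 fell at PFOA5, and Dnajb9 was not called. Hspa5 (chr2:34772090-34776529) encodes BiP, the main ER chaperone, and is the gene with the form of the ER stress element that was searched. It measured 10.63, 10.65, 10.68, 10.56 and 10.50 in controls and 10.04, 10.28, 10.23, 10.28 and 10.05 at PFOA5. Every PFOA5 array lay below every control, and Hspa5 fell by 0.43 (SE 0.11, adjusted p = 0.00588). Its PFOA1 arrays, at 10.58, 10.71, 10.31, 10.42 and 10.73, all lay above the PFOA5 arrays (difference PFOA5 minus PFOA1 -0.37 ± 0.11, adjusted p = 0.018, or 0.0621 with array medians centred). At GenX10 the difference from control was -0.23 ± 0.11 (adjusted p = 0.152).

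Herpud1 (chr8:94386429-94395371) encodes a membrane protein of ER-associated degradation and has both ATF4 and ER stress inputs. Its control arrays measured 10.64, 10.22, 10.32, 10.61 and 10.29, and its PFOA5 arrays 9.73, 9.93, 9.78, 9.53 and 9.58. The groups were fully separate, and Herpud1 fell by 0.71 (SE 0.16, adjusted p = 0.00297), a 1.63-fold decrease. Under GenX10 the arrays measured 9.89, 10.36, 10.14, 9.70 and 9.72, of which 1 lay within the controls' range. The difference was -0.45 ± 0.16 (adjusted p = 0.062), and it was called without GenX10 replicate 2 (-0.55, adjusted p = 0.0273). The difference under GenX2 was -0.42 ± 0.16 (adjusted p = 0.184), and 1 of its arrays, replicate 1 at 9.19, stood below the others at 10.04 to 10.35.

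Xbp1 (chr11:5520641-5525993), the factor downstream of IRE1, ranged from 9.50 to 9.73 in controls and from 9.18 to 9.58 at PFOA5. It fell by 0.27 (SE 0.09, adjusted p = 0.0401) with overlapping groups, and the call was lost without control replicate 1, 2, 4 or 5 or PFOA5 replicate 1, 2, 3 or 5 (adjusted p from 0.0502 to 0.1) and with array medians centred (0.153). The arrays do not separate spliced from unspliced Xbp1. Dnajb9 (chr12:44205897-44210068), a J-protein that helps BiP and represses IRE1, was not called in either direction. It measured 10.09, 9.96, 10.00, 10.09 and 10.10 in controls, 10.37, 10.10, 10.22, 10.48 and 10.25 at PFOA5, and 10.49, 10.20, 10.43, 10.21 and 10.18 at GenX10. The lowest PFOA5 array (10.0989) was barely above the highest control (10.0982), and all GenX10 arrays lay above the controls. The differences of 0.24 ± 0.11 and 0.26 ± 0.11 were not called (adjusted p = 0.138 and 0.125). Without maternal control replicate 4 the number of called genes at PFOA5 dropped from 6 to 3: Trib3, Hspa5 and Herpud1.

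Between the doses, PFOA5 exceeded PFOA1 for 1 gene, Trib3 (10.2% of all genes higher), and lay below it for 2, Hspa5 and Herpud1 (8.52% lower). None of the 10 differed between GenX10 and GenX2 (0.237% of all genes in either direction), with 1 at an unadjusted p under 0.05.

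**Figure D2:**
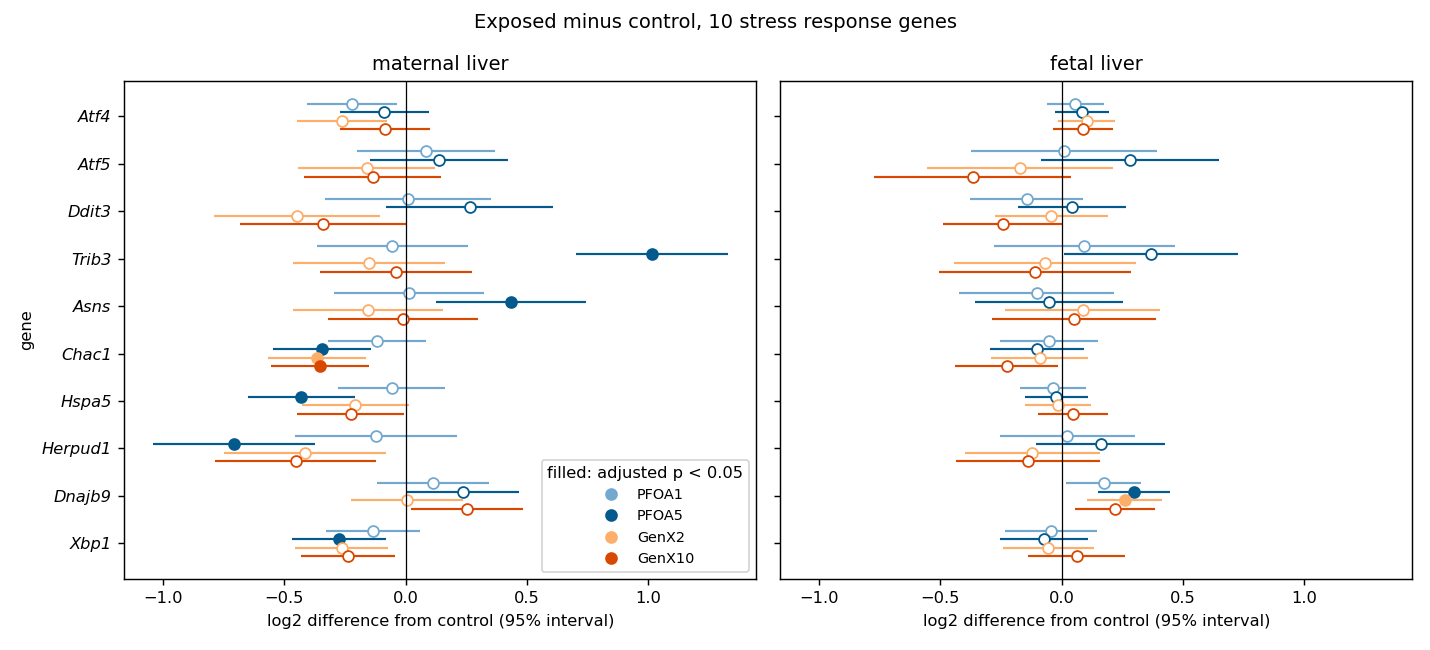
Log2 difference from the control of the same tissue for each gene and exposure, with its 95% interval; filled points are calls at an adjusted p under 0.05. Maternal PFOA5 holds 6 filled points on both sides of 0, from Herpud1 at -0.71 to Trib3 at 1.02, and fetal liver holds filled points for Dnajb9 only.

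The rest of the pathway was read from lists chosen with earlier results of these data known, so their counts are descriptions. Of 15 other ER chaperones and folding enzymes, 12 fell and none rose in maternal liver at PFOA5, with a median difference of -0.44. Hyou1, a nucleotide exchange factor for BiP, fell by 0.72 (adjusted p = 2.85e-06) and Ppib, an ER proline isomerase, by 0.77 (adjusted p = 3.14e-06). At GenX10 7 of the 15 fell and none rose (median -0.33), among them Ppib by 0.60 (adjusted p = 0.000137) and Sdf2l1 by 0.59 (adjusted p = 0.000602). GenX2 called 1 of the 15 (Ppib, lower) and PFOA1 none. The degradation and translocation list was mixed at PFOA5, with 4 of 15 higher, led by Derl1 (0.57, adjusted p = 5.37e-06) and Nploc4 (0.60, adjusted p = 5.59e-05), and 8 lower, led by Os9 (fell by 0.45, adjusted p = 0.000373) and Edem2 (fell by 0.53, adjusted p = 0.000515).

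Among 5 sensors and processing proteases, 1 was called higher and 2 lower at PFOA5 and at GenX10, and 1 each way at GenX2. Atf6b, a paralog of the sensor gene Atf6, fell by 0.35 at PFOA5 (adjusted p = 4.08e-05) and by 0.29 at GenX10 (adjusted p = 0.000581). Ern1, which encodes IRE1, fell by 0.33 at PFOA5 (adjusted p = 0.0118), by 0.40 at GenX2 (adjusted p = 0.0125) and by 0.57 at GenX10 (adjusted p = 0.000108). Creb3l3, a liver membrane-bound factor of the ATF6 type that controls lipid and fasting genes, rose by 0.51 at PFOA5, 0.27 at GenX2 and 0.38 at GenX10 (adjusted p = 7.1e-07, 0.0071 and 6.07e-05). ISR kinases, phosphatases and ATF4 partners gave 3 higher of 12 at PFOA5 and none lower. Eif2ak1, the haem-regulated kinase HRI, rose by 0.43 (adjusted p = 0.00016), and Nupr1, a stress-induced chromatin protein, by a fitted 0.95 (adjusted p = 0.000524). The Nupr1 groups overlapped (7.68 ± 0.62 at PFOA5, SD, n = 5, with 3 of 5 arrays above background), and since no control array was above background the rise is at least 1.05-fold.

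Of 14 genes of amino acid synthesis and transport 1 rose at PFOA5 in maternal liver (Slc3a2, a transporter heavy chain, by 1.34 with every array above the controls, adjusted p = 8.28e-09), and 5 fell, led by Mthfd2 and Psph. Both of these lay below background in both groups. Aldh18a1 and Slc7a5, also among the 5, had no control array above background. The median difference of the 14 genes was -0.22. Of 12 tRNA synthetases and export factors 4 rose, led by Gars (0.53, adjusted p = 0.000136) and Sars, and 3 fell, led by Tars and Cars. Vldlr, a lipoprotein receptor, led 2 of 5 other targets with 8.08 ± 0.21 (SD, n = 5) at PFOA5 against controls not well above background, at least 1.38-fold higher. Vldlr was also called higher at GenX2 (fitted 0.84, adjusted p = 0.0118) and GenX10 (at least 1.24-fold, adjusted p = 2.44e-06). At GenX10 Eif2ak1 (0.38, adjusted p = 0.000964), Slc3a2 (0.44, adjusted p = 0.00973) and Gars (0.30, adjusted p = 0.0241) were called higher too. Ddit4 was called lower there (-0.63, adjusted p = 0.0274). Of the 14 amino acid genes 3 were lower at GenX2 and 3 at GenX10, led by Aldh18a1 and Mthfd2, both below background.

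At PFOA5 7 of 9 mitochondrial chaperones and proteases rose in maternal liver and none fell (median 0.64), led by the protease Lonp1 (1.04, adjusted p = 6.4e-09) and the chaperonin Hspd1 (0.81, adjusted p = 6.72e-07). GenX10 also gave 7 of 9 higher (median 0.48), GenX2 3 of 9 and PFOA1 none. Of 7 cytosolic heat shock genes 3 rose at PFOA5 and 1 at GenX10, led by Hsp90aa1 (0.87, adjusted p = 9.13e-05, and 0.52, adjusted p = 0.0154). The all-gene median in these comparisons was -0.05 at PFOA5 and at GenX10, and -0.03 at GenX2. Macrophage and Kupffer cell markers rose with the same exposures, 4 of 8 at PFOA5 and 2 of 8 at GenX10. Their mean level per array was 6.81 to 7.60 in controls, 7.00 to 7.99 at PFOA5 and 7.31 to 7.97 at GenX10, ranges that overlap, with Adgre1 and Timd4 not well above background in all 3 groups. Their part in the results above was not tested. Hepatocyte markers averaged 12.01 to 12.17 at PFOA5, and the 7 B and plasma cell markers were not well above background on any maternal array; 1 of them, Derl3, is also in the degradation list.

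**Figure D3:**
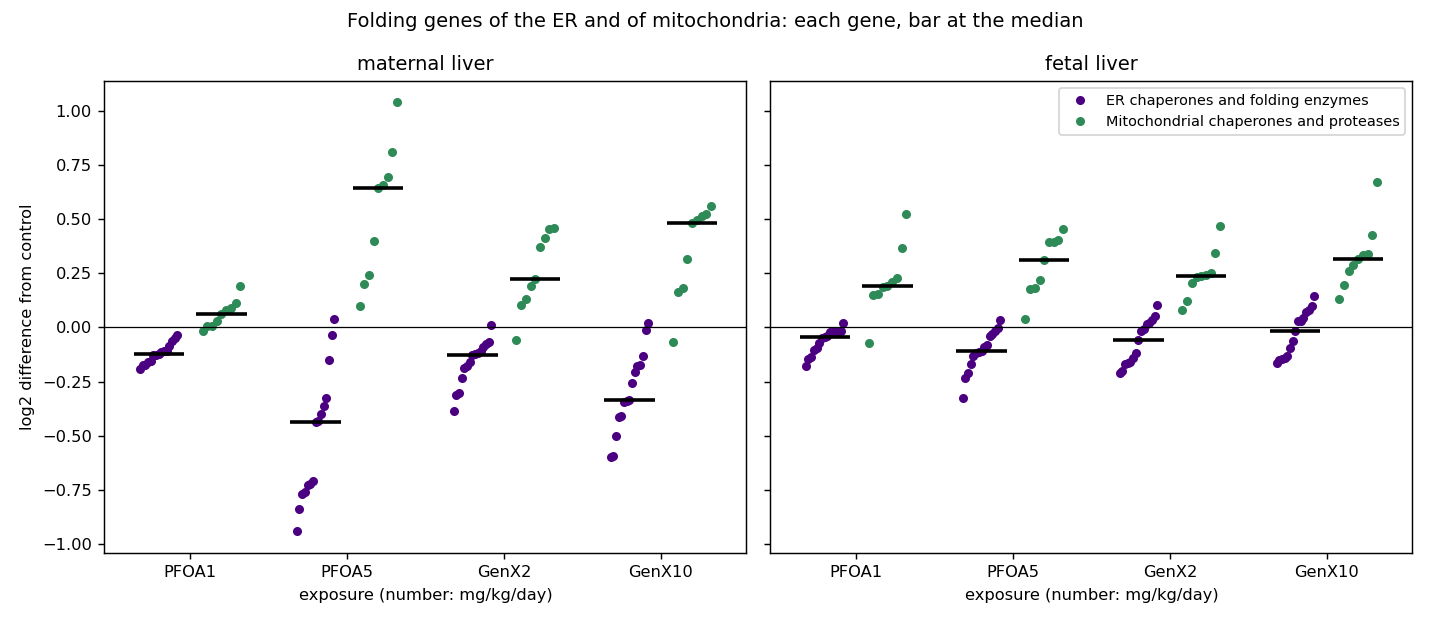
Log2 difference from control for each of 15 ER chaperones and folding enzymes and 9 mitochondrial chaperones and proteases, by exposure and tissue; bars mark the medians. In maternal liver the medians part to -0.44 and 0.64 at PFOA5, and in fetal liver the ER medians lie between -0.11 and -0.02 while the mitochondrial median reaches 0.32 at GenX10.

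In fetal liver only Dnajb9 was called among the 10 genes, and it was higher. PFOA5 gave 1 higher call (2.34% of all genes higher) and none lower (1.05%), and GenX2 gave 1 higher (3.9%) and none lower (2.83%). PFOA1 gave no call (0.953% of all genes in either direction), and neither did GenX10 (4.42% higher and 4.85% lower); 1 and 2 genes had an unadjusted p under 0.05 there. Dnajb9 measured 9.61, 9.44, 9.57, 9.64 and 9.32 on control arrays. On PFOA5 arrays the lowest, median and highest values were 9.71, 9.79 and 9.98. The 5 GenX2 arrays lay at 9.75, 9.78, 9.92, 9.70 and 9.74. Both groups lay wholly above the controls, with differences of 0.30 ± 0.07 (adjusted p = 0.0174) and 0.26 ± 0.08 (adjusted p = 0.0368). GenX10 arrays at 9.92, 9.67, 9.59 and 9.77 overlapped the controls (0.22 ± 0.08, adjusted p = 0.0832), as did PFOA1 (0.17 ± 0.08, adjusted p = 0.545).

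The fetal Dnajb9 calls are small and depend on single arrays. Without control replicate 5, its lowest control, the adjusted p was 0.0688 at PFOA5 and 0.128 at GenX2. Without control replicate 2 it was 0.0538 and 0.0815, and without PFOA5 replicate 4 it was 0.0513. At GenX2 it rose to between 0.0521 and 0.101 without GenX2 replicate 1, 2, 3 or 5. Leaving out both arrays of disputed source name, or both low-Xist arrays, kept the PFOA5 call, while at GenX2 the adjusted p became 0.0601 and 0.0665. Repeating the quantile normalization reduced the differences to 0.19 (adjusted p = 0.198) at PFOA5 and 0.14 (adjusted p = 0.32) at GenX2.

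**Figure D4:**
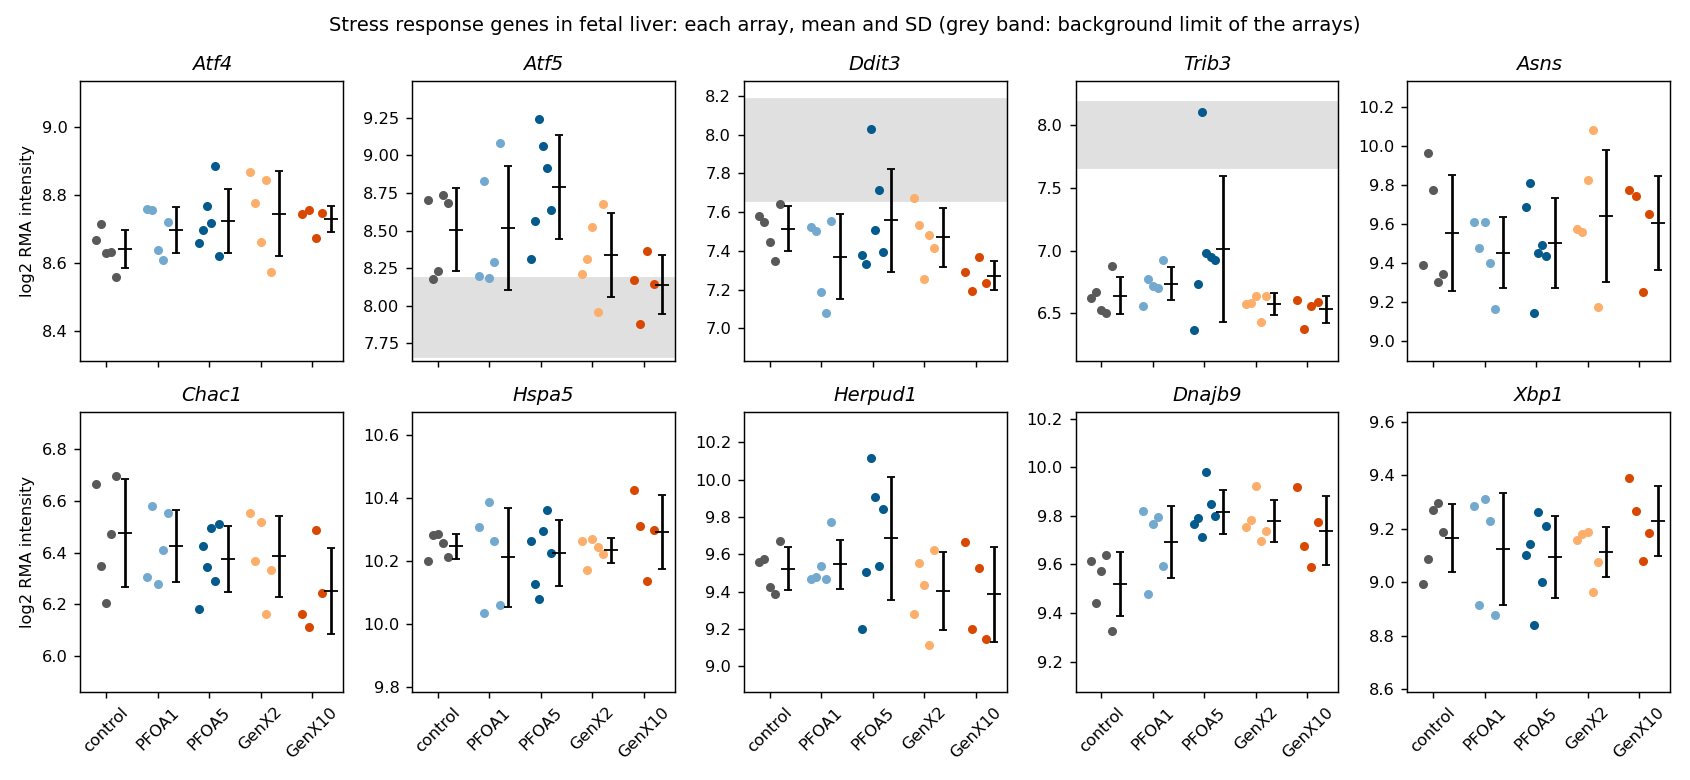
Log2 RMA intensity of the 10 genes on each fetal array (points), with the mean and SD of each group beside them; the grey band spans the background limits of the fetal arrays. Dnajb9 at PFOA5 and GenX2 lies above all controls, and 1 PFOA5 array stands out for Trib3 at 8.10.

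The other 9 genes were not called in any fetal exposure. Hspa5 kept a narrow range, 10.20 to 10.28 in controls, 10.08 to 10.36 at PFOA5 and 10.14 to 10.42 at GenX10, and its difference at PFOA5 had a 95% interval from -0.15 to 0.11. Herpud1 differed by 0.16 ± 0.13 at PFOA5 (interval from -0.10 to 0.43, adjusted p = 0.707). Trib3 was not well above background in the fetal groups other than PFOA5, whose replicate 3 measured 8.10 while its other arrays ranged from 6.37 to 6.98. Asns, above background on every fetal array, had a 95% interval of its PFOA5 difference from -0.36 to 0.25, and Atf4 one from -0.03 to 0.20. The dose contrasts called none of the 10 genes, for PFOA5 against PFOA1 (0.0488% of all genes in either direction) or for GenX10 against GenX2 (0% of all genes), and none had an unadjusted p under 0.05.

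In the wider fetal pathway the ER chaperone list gave 1 call among 15 genes over all 4 exposures (Ppib, fell by 0.32 at PFOA5, adjusted p = 0.00166). Among the sensor genes Creb3l3 rose by 0.63 at PFOA1, 0.86 at PFOA5, 0.87 at GenX2 and 1.04 at GenX10, with every exposed array above the controls (adjusted p = 0.00449, 1.91e-05, 2.53e-05 and 4.88e-06). Atf6 and the site-1 protease gene Mbtps1 were also called higher at PFOA5, GenX2 and GenX10, with Mbtps1 at 0.32 ± 0.06 under GenX10 (adjusted p = 0.00082). Mitochondrial chaperones and proteases were also called higher, 1 of 9 at PFOA1, 5 at PFOA5, 3 at GenX2 and 6 at GenX10, with none lower and medians of 0.19, 0.31, 0.23 and 0.32. The all-gene medians there were 0.02, -0.01, -0.03 and -0.06. Hspd1 rose in all 4 exposures, from 0.34 to 0.42. Among ATF4 amino acid targets Gpt2, an alanine aminotransferase near the background limit, was lower in all 4 exposures. At GenX2 Cth was lower too (-1.05, adjusted p = 0.00159), while Slc7a5 (0.365, adjusted p = 0.0306) and Slc6a9 (0.33, adjusted p = 0.0416) were higher. Psph, below background, was lower at GenX10 (adjusted p = 0.0114). Vldlr was higher at PFOA5 (fitted 0.85, adjusted p = 0.00273), with 2 of 6 arrays and no control above background.

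Unexposed fetal and maternal livers differed in 7 of the 10 genes. Asns was the 1 gene higher in fetal liver (20% of all genes were higher), and Atf5, Chac1, Hspa5, Xbp1, Herpud1 and Dnajb9 were lower, 6 of 10 beside 42.2% of all genes. The fetal control arrays of Asns measured 9.39, 9.97, 9.78, 9.31 and 9.34, against 6.99 to 7.17 in the dams. The groups lay far apart (2.45 ± 0.16, adjusted p = 1.03e-17), and since no maternal control was above background the difference is at least 3.85-fold. Herpud1 was 0.89 lower in fetal liver (9.52 ± 0.12 against 10.42 ± 0.19, SD, n = 5 each, adjusted p = 3.97e-06). Dnajb9, by 0.53, and Xbp1, by 0.46, were also lower (adjusted p = 1.19e-05 and 6.17e-05). Hspa5 was 0.36 lower (10.25 ± 0.04 against 10.61 ± 0.07, adjusted p = 0.000731), but by 0.21 with a replicate block (adjusted p = 0.165). Chac1 was above background on none of the 5 control arrays of either tissue, so its call compares bounds and no fold is given. Trib3, Atf4 and Ddit3 were not called.

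Of the 14 amino acid targets of ATF4 8 were higher in fetal than in maternal controls and 3 lower, the former including the transporter gene Slc7a5 (at least 2.52-fold) and the serine synthesis gene Psat1 (2.22 ± 0.12). Of 15 ER chaperones 11 were lower, led by Ero1b (at least 2.17-fold) and Dnajc3 (fell by 1.18), and 1, Ero1a, was higher. Eif2ak1, the haem-regulated kinase that red cell precursors use, was higher by 1.67 ± 0.09 and Ppp1r15a, which encodes the eIF2-alpha phosphatase subunit GADD34, was at least 1.57-fold higher. Fgf21, a hormone gene that ATF4 can induce, was at 8.50 ± 0.79 (SD, n = 5) in maternal controls and not well above background in fetal controls, at least 1.52-fold lower. Erythroid markers averaged 10.08 to 10.45 per fetal control array and 6.42 to 6.75 per maternal control array; their part in these differences was not tested.

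The effect of PFOA5 differed between the tissues for 2 of the 10 genes. The fetal minus maternal difference of the effect was 0.87 ± 0.21 for Herpud1 (adjusted p = 0.00873) and 0.41 ± 0.12 for Hspa5 (adjusted p = 0.0476), higher in both (1.77% of all genes higher), with none lower (2.71% lower). For Herpud1 this sets a maternal change of -0.71 against a fetal one of 0.16, and it was called under all 32 alternatives tried. For Hspa5, with -0.43 against -0.02, it was called under 11 of 32, with an adjusted p of up to 0.137, and it was lost on leaving out single arrays of either tissue. Trib3 differed by -0.65 ± 0.24 (adjusted p = 0.128), and without fetal PFOA5 replicate 3 by -0.87 (adjusted p = 0.00251). None of the 10 genes was called for PFOA1 (0.179% of all genes in either direction), GenX2 (1.28%) or GenX10 (2.04%). In the list of 15 ER chaperones the PFOA5 effect was higher in fetal liver for 7 and lower for none, with Hyou1 at 0.70 ± 0.12 (adjusted p = 0.000154).

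How the genes varied between animals of the same group was measured from residuals after group means, over 25 arrays per tissue and 45 pairs, with p from 100000 permutations within groups adjusted over the 45. In maternal liver 3 pairs passed by Pearson r and 1 by Spearman rho, all positive: Hspa5 with Xbp1 (Pearson r = 0.73, p = 0.00165, adjusted 0.0371; Spearman rho = 0.69, p = 0.00389), Atf4 with Herpud1 (r = 0.63, p = 0.0004, adjusted 0.018; rho = 0.73, p = 0.00019) and Ddit3 with Chac1 (r = 0.49, p = 0.00281, adjusted 0.0421; rho = 0.58, p = 0.004). Without the 2 arrays farthest from the median of the first gene, r was 0.61, 0.62 and 0.56. Chac1 was above background on 0 of the 25 maternal arrays and Ddit3 on 11, so the last pair largely relates signals within background.

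In fetal liver 16 pairs passed by Pearson r, 10 positive and 6 negative, and 13 by Spearman rho, and 12 pairs passed without the arrays of disputed source name. The ER genes Hspa5, Xbp1 and Dnajb9 were linked pairwise (r = 0.70, 0.69 and 0.67, permutation p = 0.00319, 0.00109 and 0.00195, adjusted 0.0174, 0.00981 and 0.0146). Their rho values were 0.66, 0.68 and 0.74 (permutation p = 0.00548, 0.00155 and 0.00035), and r without the farthest arrays was 0.60, 0.60 and 0.64. Herpud1, the remaining ER gene, passed with none of them (r = -0.26 with Hspa5, -0.12 with Xbp1 and -0.02 with Dnajb9). Trib3 ran with Herpud1 (r = 0.74, p = 6e-05, adjusted 0.00135; rho = 0.69, p = 4e-05; 0.76 without the farthest arrays), although Trib3 was above background on 1 of the 25 fetal arrays. Asns ran against Atf5 (r = -0.77, p = 5e-05, adjusted 0.00135; rho = -0.78, p = 6e-05; -0.72 without the farthest arrays).

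Erythroid marker level moved with the same fetal genes. Its mean log2 level per array, over 6 genes, ran with Asns (r = 0.86; rho = 0.87) and against Atf5 (r = -0.85; rho = -0.88) among arrays of the same group, each at p = 1e-05, the smallest that 100000 permutations can give, and adjusted 0.0011 over 220 relations of 10 genes, 11 marker lists and both tissues. Without the 2 arrays of the most extreme erythroid level r was 0.84 and -0.83. Herpud1 (r = -0.65, p = 0.00025, adjusted 0.00817; rho = -0.62, p = 0.00151; -0.59 without the extreme arrays) and Trib3 (r = -0.54, p = 0.00016, adjusted 0.00817; rho = -0.60, p = 0.00162; -0.58) also ran against it. Fetal Trib3 further ran with hepatocyte markers (r = 0.83, p = 0.00305, adjusted 0.0419; rho = 0.56, p = 0.00503; 0.67), and the PFOA5 array with Trib3 at 8.10 had the highest hepatocyte level of that group, 11.52 against 10.71 to 10.99, and the lowest erythroid level, 9.90. These Trib3 relations too rest on levels that were above background on 1 of 25 arrays. The relations were not limited to these lists: 15 passed by Pearson r in fetal liver, 10 of them with other lists, and 9 of the 15 also by Spearman rho. Herpud1 ran with megakaryocyte markers (r = 0.79, permutation p = 0.00026, adjusted 0.00817; rho = 0.72, p = 0.00126; 0.71 without the extreme arrays) and endothelial markers (r = 0.75, permutation p = 0.00109, adjusted 0.03; rho = 0.70, p = 0.00161; 0.64). The other fetal relations that passed were of Trib3 with endothelial, of Atf5 and Asns with megakaryocyte, of Asns and Chac1 with B and plasma cell, and of Trib3, Chac1 and Herpud1 with T and NK cell markers. Of the B and plasma cell list and of the T and NK cell list 0 genes were above background in any fetal group, and Chac1 was above it on 0 of 25 fetal arrays, so those relations involve background signal. In maternal liver 1 relation passed, Herpud1 with pancreatic acinar markers (r = 0.52, permutation p = 0.00216, adjusted 0.0348; rho = 0.50, p = 0.00938; 0.57). It did not pass by rho (adjusted 0.0938), and 5 of the 6 acinar markers were not well above background in any maternal group.

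**Figure D5:**
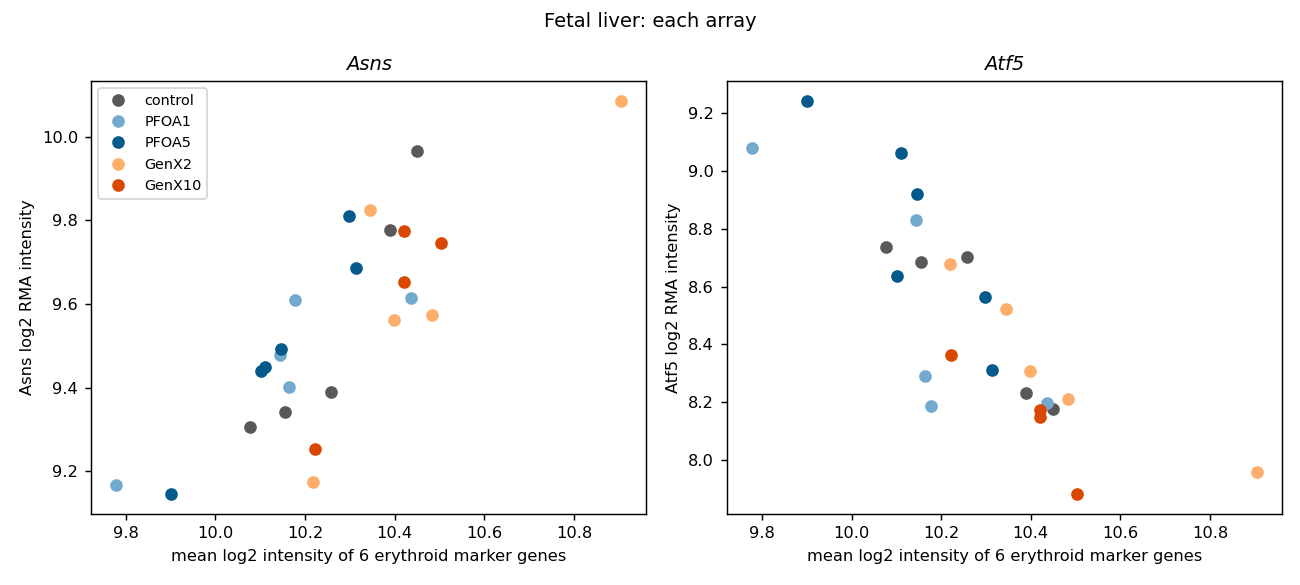
Asns (left) and Atf5 (right) log2 RMA intensity on each fetal array against the mean log2 intensity of 6 erythroid marker genes, coloured by exposure group. Asns is higher and Atf5 lower on arrays with more erythroid signal (within-group r = 0.86 and -0.85), and the exposure groups overlap along the same bands.

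The genes whose levels were most like Hspa5 over the 25 maternal arrays were Creld2 (r = 0.93), Dnajc3 (0.88), Tmed9 (0.88), Vtn (0.88) and Serpina10 (0.88), the last 2 encoding secreted plasma proteins. In fetal liver they were Erp44 (0.84), Calr (0.84), Hsp90b1 (0.83), Ssr3 (0.82) and Stt3a (0.81), all of ER folding, translocation or glycosylation. For Asns the nearest maternal genes reached less likeness, Dpp7 (0.68), Rbmxl1 (0.68), App (0.67), Nolc1 (0.64) and Pabpc4 (0.64). In fetal liver they were Nup54 (0.91), Prim2 (0.90), Gm7327 (0.90), Ppp1cc (0.90) and Rbbp4 (0.90), among them a DNA primase subunit and a histone-binding chromatin protein. These values describe arrays that share groups and are given without a test.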

How the data were processed

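Liver RNA of 50 animals was measured on Affymetrix whole-transcript arrays, with RIN above 5 per the labels. The values analysed are log2 intensities that the authors deposited after RMA. Both RMA and the build mm10 come from the submitters' processing notes, without versions. Array medians lay between 5.15 and 5.34; precision is limited by how many arrays each group has. Of the probe sets, 30604 had 1 symbol, 612 several symbols of 1 gene, and 1534 several genes and were left out. The brightest probe set per gene was kept, giving 30743 genes, of which 4393 to 7488 per array were above the 95th percentile of negative controls. Each tissue was fitted with limma 3.58.1 (R 4.3.3; lmFit and eBayes) over its 5 groups, and tissue differences and interactions over all 10 groups, two-sided, with Benjamini-Hochberg adjustment. Scripts were tested on simulated data. The limma p values set differences of group means against the spread between arrays of the same group. Permutations (100000) used numpy 2.4.6. At least N-fold statements set the bright group against the lowest signal above background or the dim group's own level, whichever is higher. Marker levels are means of log2 values.

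The 10 genes and all lists were chosen with earlier results of these data known. All 10 are named. From each list, genes were drawn from the up to 2 per direction and exposure with the smallest adjusted p. Not all of these are named for every exposure, so silence on a gene does not mean that it was not called. For Hspa5 and Asns the 5 genes of highest r are named. Other genes, named for their counts or as markers, were chosen after their values were seen. Alternatives were an intensity trend, dim genes left out, repeated quantile normalization, centred medians, the mean of all probes, array weights, only the groups compared, a replicate block, the arrays of disputed source name left out or regrouped, and each array left out. Leaving out the low-Xist arrays was added after seeing the data. Within a tissue, same-numbered arrays of different groups were by median no more alike than others. Dams and fetuses of the same number were not compared.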

Additional observations from a re-analysis of the deposited data

Results flagged for a closer look

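In 6 of 100 groups of 4 to 6 arrays tested over the 10 genes, the highest or lowest array stood apart by Dixon's criterion, which chance alone flags in about 5% of groups. Trib3 was 7.02 on maternal GenX10 replicate 5, against 6.88 to 6.91 on the others, all below background. Trib3 was 8.10 on fetal PFOA5 replicate 3, against 6.37 to 6.98, and this array also had the highest hepatocyte and lowest erythroid marker level of its group; the part of either in the value was not tested. Atf4 was 8.67 on fetal GenX10 replicate 3, against 8.74 to 8.76. Hspa5 was 10.55 on maternal GenX10 replicate 3, against 10.31 to 10.38. Herpud1 was 9.19 on maternal GenX2 replicate 1, against 10.04 to 10.35, and 9.77 on fetal PFOA1 replicate 5, against 9.47 to 9.54.

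The effect of PFOA5 differed between tissues by the interaction test for Herpud1 (fetal minus maternal 0.87) and for Hspa5 (0.41).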

How the results depend on the processing

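The counts below are of the 10 genes called. For maternal GenX2, 1 in the report became 0 with dim genes left out, with centred medians and with the replicate block, and 3 with repeated quantile normalization. For maternal GenX10, 1 became 3 with repeated quantile normalization or array weights and 5 with only the groups compared. For fetal PFOA5, 1 became 0 with repeated quantile normalization, as it did for fetal GenX2, which also fell to 0 with only the groups compared and with the disputed or low-Xist arrays left out. For fetal GenX10, 0 became 1 with centred medians. For the PFOA5 interaction, 2 became 1 (Hspa5 lost) with the intensity trend, centred medians, the replicate block, and the disputed (left out or regrouped) or low-Xist arrays left out. For the GenX2 interaction, 0 became 1 (Atf4) with dim genes or disputed arrays left out. Leaving out 1 array at a time gave 3 to 5 calls at maternal PFOA5, 0 to 1 at maternal GenX2, 0 to 2 at maternal GenX10, 0 to 1 at fetal PFOA5, fetal GenX2 and fetal GenX10, 1 to 3 for the PFOA5 interaction, 0 to 1 for the GenX2 interaction and 3 to 4 for maternal PFOA5 against PFOA1. The replicate block left 5 of 6 calls at maternal PFOA5. With dim genes left out, Asns and Chac1 were not tested in maternal liver, being above background on 3 and 0 of its 25 arrays. Same-numbered arrays from different groups of a tissue correlated with a median of -0.03 in each tissue. Whether the numbers pair a dam with a fetus was not tested. Centred medians moved the calls over all genes from 3329 higher and 2780 lower to 3997 and 1287 at maternal PFOA5, from 748 and 288 to 966 and 164 at maternal GenX2, from 2320 and 1912 to 3046 and 735 at maternal GenX10, from 3129 and 2619 to 3779 and 1008 for maternal PFOA5 against PFOA1, from 1200 and 870 to 1704 and 615 at fetal GenX2, from 1360 and 1491 to 2130 and 833 at fetal GenX10, and from 6156 and 12960 to 7109 and 9357 between the controls. No called difference of the 10 genes changed sign under any alternative run, while uncalled differences near 0 did. The cause of these changes was not tested. Chac1, Trib3, Asns and Ddit3 lie near the background in maternal liver, which limits their differences to bounds.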
